A study of Mus musculus with 3 samples.

Results

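The developmental pluripotency associated genes Dppa2, Dppa3, Dppa4 and Dppa5a were followed in bisulfite-converted mRNA of mouse embryonic stem cells. The members were taken by gene symbol, after each RefSeq transcript identifier was matched without its version, and all 4 were found among the 13220 named genes of the tables. Dppa3 lies on chromosome 6, Dppa5a on chromosome 9, and Dppa2 and Dppa4 both on chromosome 16. Together they held 788 of the 4450412 cytosines listed in any library. The cells were on a J1 background and carried the genotype Tet1-/-,Tet2-/-,Tet3-/-, so the genes of all 3 enzymes that oxidise 5-methylcytosine were disrupted. All 3 samples belong to this 1 genotype, no sample with intact Tet genes was analysed here, and comparisons are therefore between cytosines and genes of the same libraries. Per the labels' protocols the cells grew on fibroblast feeders in serum with a leukaemia inhibitory factor supplement, feeders were removed by letting them attach to fresh dishes, and poly(A)+ RNA was fragmented and converted. Nothing in the labels says that the samples came from separate cultures, so their spread may be technical.

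The Dppa genes were named for their expression together with Oct4 in pluripotent cells and are not a single protein family. Dppa2 and Dppa4 are related nuclear proteins with a SAP domain, a DNA-binding fold, that pair with each other on chromatin, keep promoters of developmental genes free of DNA methylation and act upstream of the 2-cell-stage programme. Dppa3, also called Stella, is a maternal factor that guards the maternal genome of the zygote against oxidation of its 5-methylcytosine and restrains the maintenance methylation factor Uhrf1. Dppa5a, also called Esg1, has a KH-type RNA-binding fold and is an abundant marker of mouse stem cells. Bisulfite turns unmodified cytosine of RNA into uracil and leaves 5-methylcytosine unchanged. The unconverted share, the percentage of reads at a cytosine that still show cytosine, thus holds methylated cytosines together with cytosines that the reagent missed.

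The libraries were of similar depth, with a coverage summed over listed cytosines of 139884444 to 151362866, so that a read adds 1 for every cytosine within it. The library-wide unconverted share, used as the background, was 1.53%, 1.45% and 1.41% in replicates 1, 2 and 3. All 8 embryonic stem cell markers were listed and took 0.276% to 0.294% of the coverage, led by Sox2, while Nanog and Esrrb had no cytosine with enough reads to test. The lowest coverage listed is 3, so a listing does not by itself identify the cells. Of 8 fibroblast markers 6 were listed, at 0.0517% to 0.0694% of the coverage and led by Vim, which stem cells also express, and Postn and Lum were not listed. All 6 had cytosines with enough reads to test, among them the collagen genes Col1a1 with 463 and Col1a2 with 428. Of 8 early differentiation markers 6 were listed, at 0.0242% to 0.0254%. The part of feeder-cell RNA in the results below was not tested.

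Dppa5a mRNA stood far above the other members. Its coverage level, the mean coverage per listed cytosine for each 1000000 of summed coverage, was 14.0, 13.7 and 14.6 in replicates 1, 2 and 3 (14.1 ± 0.451, SD, n = 3). In reads, this was a mean coverage per listed cytosine of 2122, 1950 and 2038. Only 19 of 10241 genes with at least 20 listed cytosines per library had a higher coverage level, and Dppa5a ranked 20. It was 6.47 ± 0.194 times the level of Pou5f1, the gene of the core stem cell factor Oct4 (SD of the ratio, n = 3). Its neighbours in that order were H2az1, a histone variant gene, at 14.4 ± 1.35 and Rps10, a ribosomal protein gene, at 13.7 ± 0.690 (SD, n = 3), and neither differed from Dppa5a beyond its spread. Coverage is a rough measure of abundance, because it depends on which reads the authors' mapping placed on a transcript model. Fewer cells that express a gene and less RNA per cell also cannot be told apart in bulk RNA.

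Dppa3 came next, at a coverage level of 0.363, 0.391 and 0.424 (0.393 ± 0.0306, SD, n = 3). The Dppa5a level was 36.0 ± 2.31 times as high, and the libraries of these genes did not overlap. Dppa4 stood at 0.156, 0.194 and 0.234 (0.195 ± 0.0389), and Dppa2 at 0.195, 0.179 and 0.169 (0.181 ± 0.0131). The levels of Dppa4 and Dppa2, the partners on chromatin, overlapped, and Dppa4 was lower than Dppa2 in replicate 1 and higher in the other 2 libraries. With the median in place of the mean coverage per listed cytosine, the Dppa2 level fell to 0.0920 ± 0.0116 and Dppa4 stood at 0.155 ± 0.0268 (SD, n = 3), with medians of 20 to 26 reads in Dppa4 and 11 to 15 in Dppa2. Dppa3 was 2.05 ± 0.257 times the Dppa4 level and 2.18 ± 0.324 times the Dppa2 level, with no overlap between libraries (SD of the ratio, n = 3). Genes at nearly the same level as Dppa3 were Rbmxl1 (0.393 ± 0.0599) and Ngdn (0.392 ± 0.0224), those beside Dppa4 were Snapc1 (0.195 ± 0.0326) and Rnf10 (0.195 ± 0.0196), and those beside Dppa2 were Smyd2 (0.181 ± 0.0267) and Rnf181 (0.181 ± 0.00922). Dppa1 was not listed.

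**Figure D1:**
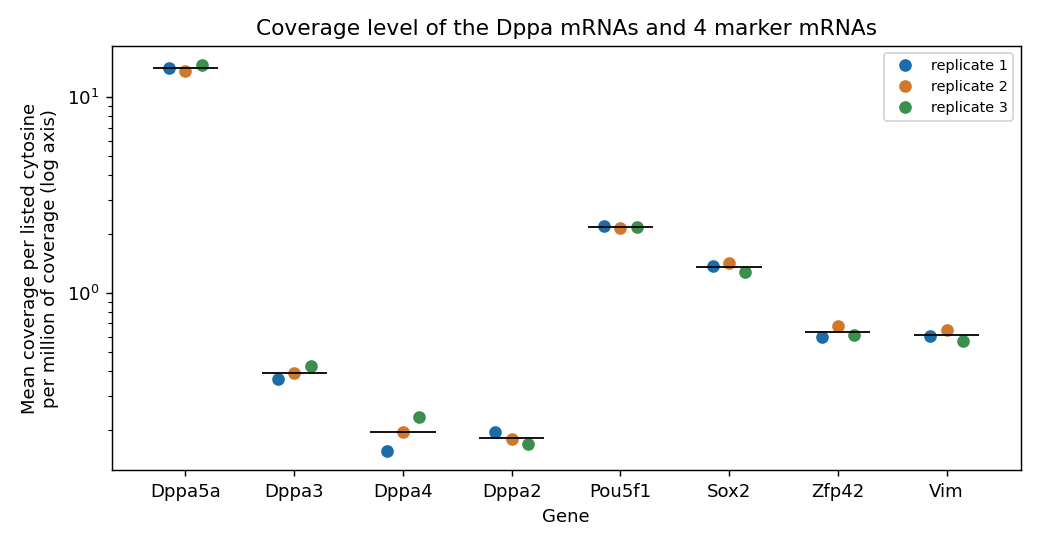
Coverage level (mean coverage per listed cytosine per 1000000 of summed coverage, log axis) of the 4 Dppa genes, the stem cell markers Pou5f1, Sox2 and Zfp42, and Vim, with 1 point per library and a line at the mean. Dppa5a lies at 13.7 to 14.6, above all the others shown, and the libraries of Dppa4 and Dppa2 overlap.

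Reads covered the members unevenly. The short Dppa5a transcript (NM_025274.3) had 149 listed cytosines from position 3 to 610, with no stretch of more than 14 nt between them. Its coverage moved in waves: the mean per cytosine was 4132 ± 69.8 reads in the window from 350 to 399 and 4007 ± 325 from 450 to 499, but 393 ± 29.5 from 250 to 299 (SD, n = 3). The waves fell at the same places in every library, and across the 144 cytosines with at least 10 reads the log2 coverage of library pairs had Pearson's r of 0.993 to 0.997, a description over cytosines that share reads. Dppa3 (NM_139218.1), with 162 listed cytosines from 6 to 790, peaked in the window from 500 to 599 at 123 ± 9.89 reads and from 200 to 299 at 90.7 ± 4.61 reads. Dppa5b and Dppa5c on chromosome 9 and Dppa3-ps on chromosome X are annotated as pseudogenes and were not listed. Whether any of the Dppa5a and Dppa3 reads came from them was not tested.

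Dppa2 (NM_028615.1) had the longest listed span of the members, with 397 listed cytosines from position 16 to 1935, and the most patchy. Its stretch from 800 to below 1000 held 52 cytosines and 43.8% to 44.8% of its coverage. In the window from 1100 to 1199 the mean was 3.06 ± 0.102 reads per listed cytosine (SD, n = 3), near the lowest coverage of 3 that the tables list. Replicate 3 listed 372 Dppa2 cytosines and the other libraries 334 each, and 37 were listed in replicate 3 alone. Dppa4 was listed under 2 transcript models. NM_028610.2 had 66 cytosines between 211 and 482, with a peak of 77.4 ± 9.50 reads per cytosine from 350 to 399. NM_001018002.1 had 14, 6 and 0 cytosines in replicates 1, 2 and 3, all at 3 to 5 reads. The models share 10 listed positions from 257 to 307, and nothing beyond position 482 was listed for either. Such short listed spans were common among genes with more than 1 listed transcript: 41.9% of these 1433 genes ended before position 500, against 9.84% of the 11787 genes with 1 listed transcript. The Dppa4 level rests on this listed span and pools both models, so the sparse cytosines of NM_001018002.1 lower it in replicates 1 and 2. NM_028610.2 alone stood at a coverage level of 0.184, 0.210 and 0.234 (0.209 ± 0.0251, SD, n = 3).

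**Figure D2:**
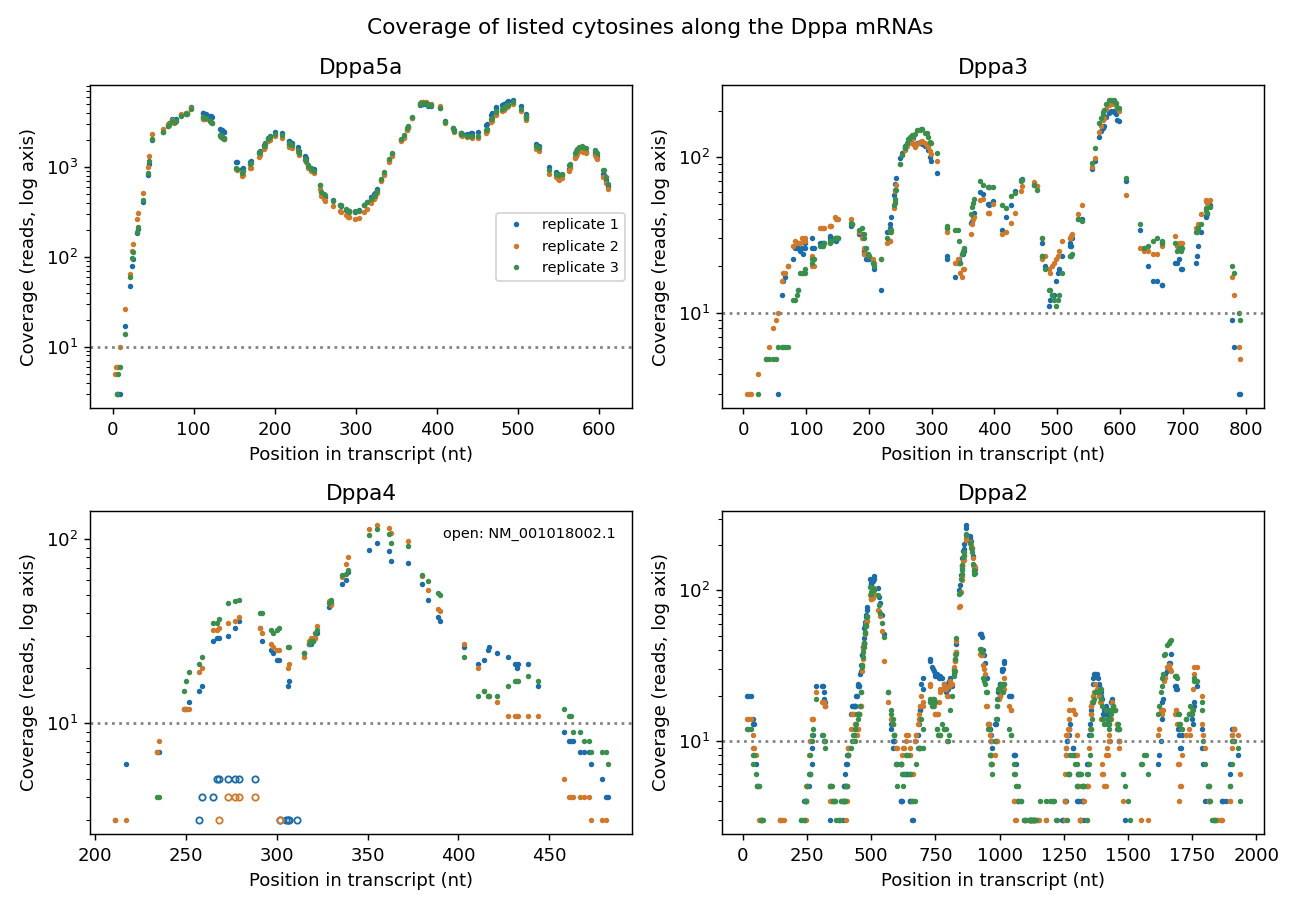
Coverage of each listed cytosine (reads, log axis) against its position in the transcript (nt) for Dppa5a, Dppa3, Dppa4 and Dppa2, with 1 colour per library, open symbols for the second Dppa4 model and a dotted line at the 10 reads needed for testing. The main peaks and troughs fall at the same positions in all 3 libraries, and many Dppa2 cytosines lie below 10 reads.

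Nearly all cytosines of the Dppa mRNAs were converted. Over all reads of the gene, the unconverted share of Dppa5a was 1.35%, 1.28% and 1.24% in replicates 1, 2 and 3 (1.29% ± 0.0583, SD, n = 3). It lay below the share of all other genes in 3 of 3 libraries, by a mean difference of -0.172 ± 0.00621 percentage points (SD, n = 3). The exact binomial 95% interval of replicate 1, 1.31% to 1.40%, covers counting error only and takes as independent what neighbouring cytosines share. Of 107 genes with between 0.5 and 2 times the Dppa5a coverage, 4.67% had a lower mean share, and their median was 1.45%.

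Dppa2 had the lowest mean share of the members, at 1.13%, 1.11% and 1.08% (1.11% ± 0.0282, SD, n = 3). In replicate 1 Dppa4 was lower, at 0.898%. Dppa2 was -0.355 ± 0.0378 percentage points from all other genes and lower in 3 of 3 libraries. The difference was -0.324 without the deeply covered stretch from 800 to below 1000, a setting chosen after seeing the data. Among 3058 genes of similar coverage 0.164% had a lower share, and the middle 50% of these genes lay between 1.38% and 1.54%. Dppa2 was below Dppa3 and below Dppa5a in all 3 libraries, by mean differences of -0.270 ± 0.0309 and -0.183 ± 0.0316 percentage points. Dppa3, at 1.38%, 1.42% and 1.34% (1.38% ± 0.0411), was -0.0844 ± 0.0591 points from all other genes and lower in 3 of 3, and 24.4% of 3066 genes of similar coverage were lower still. Without replicate 1 the Dppa3 difference shrank to -0.0519 points, and with the mean of single-cytosine shares it was -0.0999 and lower in 2 of 3 libraries. These differences have an exact two-sided sign-flip p of 0.25 each, the smallest that 3 libraries allow, and of 0.5 for the pairs of members after Benjamini-Hochberg adjustment over 6 pairs. None can therefore be called.

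The share of Dppa4 was 0.898%, 1.73% and 1.34% in replicates 1, 2 and 3 (1.32% ± 0.415, SD, n = 3). It lay below all other genes in replicates 1 and 3 and above them in replicate 2, and the exact sign-flip p was 0.75. Only 17, 34 and 28 unconverted reads stand behind these values. The exact 95% intervals of replicates 1 and 2, 0.524% to 1.43% and 1.20% to 2.40%, overlapped. Without replicate 1 the mean difference from other genes turned from -0.143 to 0.103 percentage points, so no direction holds for Dppa4. Taken over all members the difference was -0.174 ± 0.0114 percentage points (exact sign-flip p = 0.25), but Dppa5a made up 93.6% to 93.9% of the members' coverage.

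**Figure D3:**
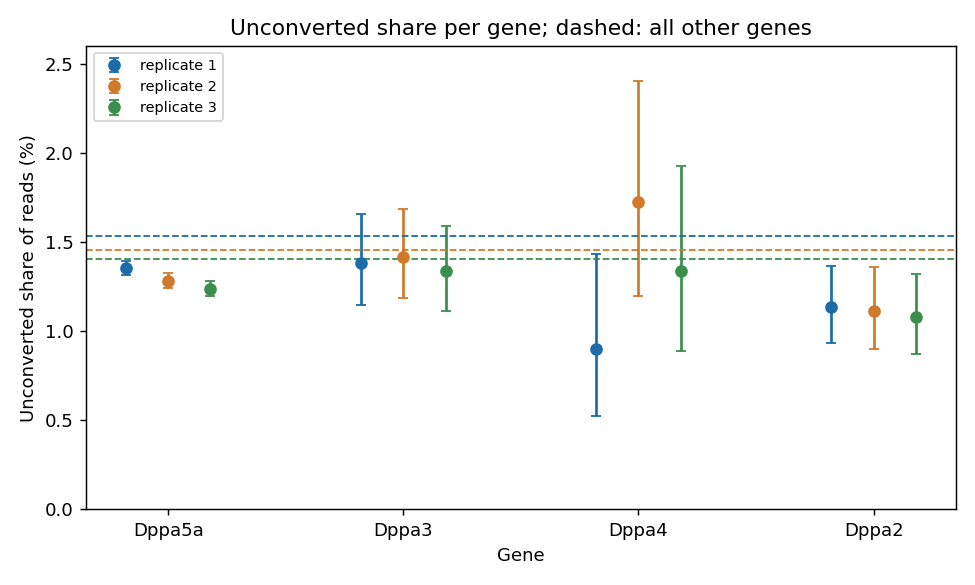
Unconverted share of reads (%) per gene and library, with exact binomial 95% intervals that cover counting error only, and dashed lines in the library's colour at the share of all other genes. All 3 points of Dppa5a, Dppa3 and Dppa2 lie below the line of their library, while Dppa4 runs from 0.898% to 1.73%.

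Single cytosines were then tested where coverage was 10 or more in all 3 libraries. This held for 144 of 149 listed cytosines in Dppa5a, 145 of 162 in Dppa3, 51 of 80 in Dppa4 and 187 of 397 in Dppa2, or 527 of 788. An exact binomial test, one-sided, asked in every library whether unconverted reads exceeded the background. Fisher's method joined the 3 p-values of a cytosine, and the Benjamini-Hochberg adjustment ran over the whole set of 1639820 testable cytosines. A candidate methylated site also had to reach a mean share of 10% and exceed the background in each library.

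No Dppa cytosine was a candidate, as against 0.0473% of all testable cytosines. The highest mean share was 7.35% in Dppa4, 7.30% in Dppa2, 6.28% in Dppa3 and 3.07% in Dppa5a, so no testable cytosine reached 10%. An adjusted p below 0.05 was found at 6 of the 527, all in Dppa5a, against 0.499% of all testable cytosines, and an unadjusted p below 0.05 at 31 against 3.32%. Of these 31, Dppa5a held 20 (13.9% of its testable cytosines), Dppa3 held 6 (4.14%), Dppa2 held 3 (1.60%) and Dppa4 held 2 (3.92%). The Dppa5a percentage was lower than in other genes between 2000 and 6000 reads (11.9% against 23.7%) and between 1000 and 2000 (11.8% against 19.4%). It was higher between 500 and 1000 (20% against 15.3%) and between 200 and 500 (21.1% against 10.2%). These classes are of mean coverage, Dppa5a had no such p below 200 reads, and the differences were not tested. The beta-binomial test, which allows for extra spread between cytosines, called 0 of the 527 and 0.153% of all testable cytosines.

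How far the data bound each cytosine differed by gene. In Dppa5a every one of the 144 testable cytosines had an upper exact 95% limit of the pooled share below 10%, and 143 had one below 5%. The limit lay below 10% at 131 of 145 cytosines in Dppa3, 44 of 51 in Dppa4 and 153 of 187 in Dppa2, and it reached 15.2%, 17.3% and 18.2% at the others. The limit was below 5% at 63 cytosines in Dppa3, 17 in Dppa4 and 54 in Dppa2, so a share of a few percent was not bounded at the others. At the median pooled coverage, 0 unconverted reads would leave room, at 3 counts of the total, for a share of up to 0.0571% in Dppa5a, 3% in Dppa3, 3.57% in Dppa4 and 4.69% in Dppa2. Of the cytosines left untested, the 5 of Dppa5a had 0 unconverted reads, and none of the 17 in Dppa3, 29 in Dppa4 and 210 in Dppa2 had more than 2 over all libraries.

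The Dppa5a site with the clearest excess was position 404. It was unconverted in 123 of 4531, 152 of 4728 and 137 of 4565 reads, or 2.71%, 3.21% and 3.00% (2.98% ± 0.251, SD, n = 3; adjusted p = 1.68e-34, combined exact binomial test). Every library was above its background, and the mean was 2.03 times the mean background. Position 244 had the highest share of the gene, with 31 of 984, 25 of 898 and 31 of 944 reads, or 3.15%, 2.78% and 3.28% (3.07% ± 0.259; adjusted p = 2.13e-06, combined exact binomial test). These shares remain small: at position 404 the pooled value of 2.98% has an exact 95% interval of 2.70% to 3.28%. When the weakest of its 3 p-values had to pass instead of the joint one, position 404 alone stayed called. That setting called 0.0403% of all testable cytosines.

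The other sites above background were weaker or less even. Position 526 had 2.81%, 2.47% and 2.08% (2.45% ± 0.361; adjusted p = 0.000248, combined exact binomial test) and position 160 had 2.41%, 2.64% and 2.43% (2.49% ± 0.128; adjusted p = 0.0458, the same exact test). Both were above background in each library. Position 111 had 2.36%, 2.58% and 1.69% (2.21% ± 0.463; adjusted p = 5.79e-07, the same exact test). Position 584 had 2.56%, 2.98% and 1.35% (2.30% ± 0.850; adjusted p = 0.00120, the same exact test), and its replicate 3 lay below the background. Position 280, next after positions 244 and 404 in the order of shares, had 1.86%, 3.36% and 2.65% from 377, 327 and 378 reads and did not pass (adjusted p = 0.528, the same exact test). The most deeply read cytosine, position 494, had 5612, 5063 and 5245 reads and stood below the background at 0.998%, 0.889% and 0.934%.

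**Figure D4:**
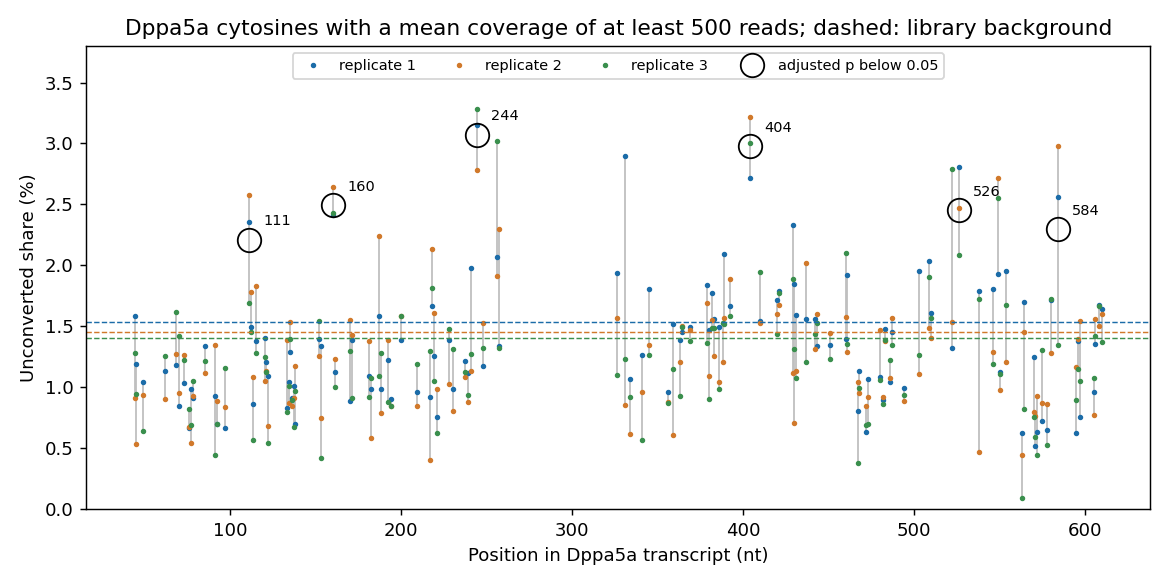
Unconverted share (%) of the 121 Dppa5a cytosines with a mean coverage of at least 500 reads against position in the transcript (nt), with 1 point per library, grey lines from the lowest to the highest library and dashed lines at the background of each library. Circles mark the mean of the 6 positions with an adjusted p below 0.05, all at a mean of 3.07% or less.

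The number of Dppa5a sites above background has to be read against depth, since more reads make a smaller excess pass. At a mean coverage of 500 reads or more 7.78% of all testable cytosines had an adjusted p below 0.05, and so did 6 of 121 in Dppa5a (4.96%). By depth class, Dppa5a had 2 of 20 at 500 to below 1000 reads, where other genes had 5.24%, 2 of 34 at 1000 to below 2000 (8.90%) and 2 of 67 at 2000 to below 6000 (13.9%). The share of called Dppa5a cytosines was thus above that of other genes in the first class and below it in the other 2 classes; cytosines of a gene share reads, and the difference was not tested. At 500 reads or more, 60 of the 121 Dppa5a cytosines (49.6%) lay at or below the background in all 3 libraries and 16 (13.2%) above it in all 3, against 37.7% and 21.6% of the cytosines of genes other than the members.

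**Figure D5:**
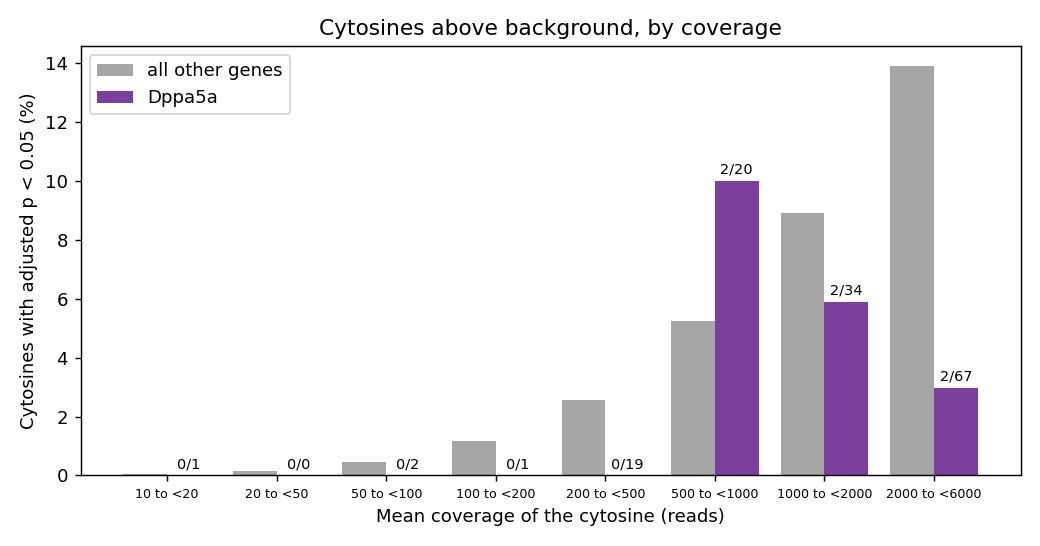
Percentage of testable cytosines with an adjusted p below 0.05 in classes of mean coverage (reads), for all genes other than the members (grey) and for Dppa5a (purple, with called over tested cytosines). The grey bars rise with coverage to 13.9%, while Dppa5a has 2 called cytosines in each of the 3 deepest classes.

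The unconverted share along Dppa5a had a pattern that the libraries shared. The windows from 400 to 449 (1.80% ± 0.0618), 250 to 299 (1.77% ± 0.0285) and 500 to 549 (1.71% ± 0.225) had the highest shares, and those from 50 to 99 (0.980% ± 0.0519) and 0 to 49 (0.972% ± 0.211) the lowest (SD, n = 3). The 3 high windows exceeded the background in every library, and those at the start of the transcript were below it in every library. Across the 120 cytosines with at least 500 reads in each library, library pairs gave Pearson's r of 0.651 to 0.689 and Spearman's rho of 0.582 to 0.689. These are descriptions over cytosines of 1 transcript that share reads and base composition. The SD of the site shares was 0.515, 0.527 and 0.530 percentage points in replicates 1, 2 and 3, and that given by counting at the background share 0.293, 0.297 and 0.283. Share and coverage hardly moved together at these sites, with rho of -0.0929, 0.0410 and 0.000896 in the 3 libraries. Among the 121 cytosines with a mean coverage of at least 500 reads, the lowest shares were at positions 563 (0.387% ± 0.269), 571 (0.626% ± 0.123), 572 (0.668% ± 0.246) and 578 (0.681% ± 0.168).

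Over all other genes, cytosines beside another cytosine were converted slightly more completely. In Dppa5a the 87 listed cytosines with a listed cytosine directly next to them had 1.33%, 1.25% and 1.17%, and the 62 others 1.40%, 1.33% and 1.35%, a mean difference of -0.108 ± 0.0561 percentage points (SD, n = 3). Position 404, among the 62 others, held 2.91%, 4.08% and 3.69% of the unconverted counts summed over Dppa5a cytosines in replicates 1, 2 and 3. Its part of the summed coverage of Dppa5a was 1.45%, 1.63% and 1.52%. How far the Dppa5a difference rests on this position was not tested. The difference between cytosines beside another and the rest had the same sign in all 3 libraries in Dppa3 (-0.324 ± 0.236) and in Dppa2 (-0.355 ± 0.272). It had mixed signs in Dppa4 (-0.0119 ± 0.204). It was -0.0888 ± 0.0119 over all other genes, lower in 3 of 3 libraries as well. An exact sign-flip test cannot go below 0.25 here. Of the 6 Dppa5a sites above background, positions 111 and 160 had a listed cytosine directly after them. The other 4, positions 244, 404, 526 and 584, were 3 nt or more from any listed cytosine.

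In Dppa3 the 3 highest shares were at positions 189, 206 and 382. Position 382 was unconverted in 3 of 58, 5 of 54 and 2 of 66 reads, or 5.17%, 9.26% and 3.03% (5.82% ± 3.16, SD, n = 3; adjusted p = 0.160, combined exact binomial test). It lay above background in each library and did not pass. Position 189 had 1, 3 and 2 unconverted reads of 32, 30 and 35 (adjusted p = 0.771, the same exact test), and position 206 had 3, 1 and 0 of 21, 22 and 21. Each of these rests on 10 or fewer unconverted reads. Position 257 was a better covered Dppa3 site, with 3 of 116, 5 of 112 and 6 of 114 reads, or 2.59%, 4.46% and 5.26% (4.10% ± 1.37, SD, n = 3). That site lay above background in each library but did not pass (adjusted p = 0.255, the same exact test), and it was named after its values were seen. At its most deeply read cytosine, position 590, Dppa3 had 8 of 199, 1 of 222 and 5 of 235 reads, or 4.02%, 0.450% and 2.13%, and replicate 2 lay below the background.

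The highest Dppa4 share was at position 265 of NM_028610.2, with 1 of 28, 5 of 32 and 1 of 35 reads, or 3.57%, 15.6% and 2.86% (7.35% ± 7.17, SD, n = 3; adjusted p = 0.140, combined exact binomial test). The value was set by replicate 2. Positions 403 and 249 followed at 5.20% ± 1.93 and 5% ± 4.41, from 4 and 2 unconverted reads in all. The deepest Dppa4 cytosine, position 355, had 1 of 96, 1 of 119 and 3 of 114. In Dppa2 the 3 highest were positions 770 (7.30% ± 9.61), 701 (7.19% ± 1.45) and 448 (6.67% ± 11.5), each with 3 or 4 unconverted reads over all libraries. At position 448 all 3 unconverted reads came from replicate 3. Position 494, with 4 of 118, 3 of 93 and 6 of 106 reads, was the better covered Dppa2 site, at 3.39%, 3.23% and 5.66% (4.09% ± 1.36; adjusted p = 0.356, the same exact test; named after its values were seen). The deepest, position 869, had 1 of 270, 1 of 224 and 3 of 237, or 0.370%, 0.446% and 1.27%, below the background in each library.

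Genes that act with the Dppa proteins were read from the same tables. Of 17 2-cell-stage genes, the programme downstream of Dppa2 and Dppa4, 14 were listed, at 0.00565% to 0.00771% of the coverage, and they held 1 adjusted p below 0.05 among 209 testable cytosines. That cytosine was also a candidate, position 272 of Zscan4d with 13.4% ± 3.76 (SD, n = 3) from 7 of 54 reads (adjusted p = 0.0351, combined exact binomial test). The Zscan4 genes are near-identical copies, so the origin of these reads is uncertain. The most covered gene of the list was Tcstv1, at a coverage level of 0.127 ± 0.0195. The median unconverted share of the 9 testable genes was 1.31%, and that of all 8999 testable genes 1.46%.

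Of 18 germline genes, many of them silenced by promoter methylation in somatic cells, 14 were listed and 2 of 938 testable cytosines passed. The most covered was Tex19.1, a germ cell gene also active in stem cells, at a coverage level of 0.808 ± 0.0171 (SD, n = 3). Its position 924 was a candidate with 12.8% ± 1.79 (SD, n = 3), from 337 of 2633 reads (adjusted p = 1.96e-191, combined exact binomial test), many more reads than at the Dppa2 or Dppa3 sites named above. The median share of the 9 testable germline genes was 1.46%, and Zfp42 stands both in this list and among the stem cell markers. Of 6 primordial germ cell markers all were listed, with 1 of 344 testable cytosines called and a median share of 1.38%. It was position 501 of Dnd1, an RNA-binding protein of germ cells, at 15.1% (10%, 20% and 15.4% in replicates 1, 2 and 3) from 7 of 48 reads (adjusted p = 0.0189, the same exact test), and Tfap2c had the largest coverage of these markers.

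Among the 9 relatives of Dppa5a and members of the subcortical maternal complex, the egg assembly that holds KH proteins such as Ooep and Khdc3, 5 were listed. They had 1 called cytosine of 480, no candidate and a median share of 1.49%. Tle6 had the largest summed coverage, at a coverage level of 0.121 ± 0.0104 (SD, n = 3), while Ooep had a higher coverage level of 0.214 ± 0.0174 over fewer cytosines. Of 8 partners and opponents of Dppa3, 6 were listed, Tet3 among them at a level of 0.0423 ± 0.00147, and 14 of 1400 testable cytosines (1%) were called, with a median share of 1.40%. The most covered was Ipo5, an import receptor, at 1.08 ± 0.0639, and its position 3115 was a candidate with 13.3% ± 3.51 from 19 of 141 reads (adjusted p = 1.16e-08, combined exact binomial test). The marker lists held 2 more candidates, position 554 of the stem cell marker Tdgf1 with 14.1% ± 3.95 from 12 of 82 reads and position 1165 of the collagen gene Col1a1 with 20.7% ± 1.72 from 39 of 186 reads (SD, n = 3). Read against the 0.499% of all testable cytosines, the 2-cell, germline, germ cell and maternal lists lay at 0.478%, 0.213%, 0.291% and 0.208%. The stem cell, fibroblast and early differentiation markers lay at 1.48%, 0.211% and 0.435%. These rates depend on depth, and the lists were not matched for it.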

How the data were processed

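Each sample has 1 deposited table of cytosines by transcript position, with coverage in raw read counts and an unconversion ratio, a fraction between 0 and 1, per the file headers. BSMAP and the build mm9 are named in the submitters' processing notes; versions, counting step and annotation were not given in the sources used here. Ratio and coverage multiplied gave whole numbers (tolerance 1e-06) at every listed cytosine, which were used as counts of unconverted reads. Of 15021 transcript identifiers, 14928 were matched to symbols through a RefSeq annotation of GRCm38.p6, used only for names, chromosomes and pseudogene status.

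Background, tests and rules are as stated with the results (level minimum of 10%, adjusted p below 0.05, exact intervals at 95%). They were run on simulated reads with chosen sites raised to 10% or more and all other cytosines at the library background. That simulation had no extra spread between cytosines and no sites raised by a few percent. It therefore cannot say whether the small excesses called in Dppa5a are false. Python 3.11.15, numpy 2.4.6, pandas 2.3.3 and scipy 1.17.1 were used. Named were all members and their neighbours in level. Of each member, every cytosine with an adjusted p below 0.05, the 3 highest shares and the deepest cytosine were named. From each gene list, those with a candidate and, where given, the one with the most coverage were named. Some genes and sites outside this rule were also named, among them Ooep, Tet3 and Col1a2. The members and lists were chosen with earlier results of these data known. Intervals cover counting error only. Alternatives changed the coverage and level minimums, the combination of p-values, the background, the test and the libraries.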

Additional observations from a re-analysis of the deposited data

How the results depend on the processing

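No Dppa cytosine became a candidate under any of the 11 alternatives run. Since no testable cytosine reached a mean share of 10%, several of these could give no other outcome. Only a coverage minimum of 5 reads, a level minimum of 5% or leaving out a replicate could have added a candidate. The 6 cytosines with an adjusted p below 0.05 became 1 with the highest of the 3 p-values and 12 with the background of the same transcript. With the beta-binomial test they became 0. Of all testable cytosines these settings called 0.0403%, 0.484% and 0.153%, against 0.499% in the main setting. The members' count was 5 and 7 under the coverage minimums of 5 and 20 reads, where 0.315% and 0.869% of all testable cytosines were called. It was 5 whichever replicate was left out, against 0.311%, 0.283% and 0.296% of all testable cytosines without replicates 1, 2 and 3. Of the original 6, leaving out replicate 1 or 2 kept 4 and leaving out replicate 3 kept 5. The gene-level difference from other genes kept its sign for Dppa2, Dppa3 and Dppa5a under every alternative run. For Dppa4 it ran from -0.352 to 0.103 percentage points when 1 replicate was left out, and it was positive without replicate 1. The median in place of the mean coverage moved the coverage levels to 0.0920 (Dppa2), 0.222 (Dppa3), 0.155 (Dppa4) and 11.8 (Dppa5a). Using only cytosines listed in all 3 libraries moved Dppa2 to 0.2045, below the 0.215 of Dppa4. The cause of these changes was not tested. No comparison between groups was possible because there is 1 group, and the differences between genes were taken within each library. At the depth of these libraries the upper limit of the share stayed below 10% at 153 of 187 testable cytosines in Dppa2, 131 of 145 in Dppa3 and 44 of 51 in Dppa4.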
